A study of Mus musculus with 7 samples.

Results

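The genes described are the subunits and receptors of the interleukin-12 (IL-12) cytokine family together with Ifng, the gene of interferon gamma. The 10 genes were taken by symbol, namely Il12a, Il12b, Il23a, Ebi3, Il27, Il12rb1, Il12rb2, Il23r, Il27ra and Ifng, out of 56953 genes counted. RNA came from tumours of B16, a melanoma line of the mouse, collected 5 days after treatment. The sort kept live cells without CD45, the surface marker of leukocytes, and without CD31, a marker of endothelium. In the first group, 3 mice received radiotherapy of 8 Gy with AAV-iIL12, an adeno-associated virus vector named for IL-12. In the second group, 4 mice received the same 8 Gy with AAV-iLuc, the control vector. The vector dose, its promoter, the cells that carried it and the meaning of the letter i were not given in the sources used here. The titles of the 3 AAV-iIL12 libraries also carry the mark WT, which the labels do not explain. There were no unirradiated libraries, so every value below is from an irradiated tumour.

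IL-12 family cytokines are pairs of chains. IL-12 joins the chains encoded by Il12a and Il12b, IL-23 joins those of Il23a and Il12b, and IL-27 joins those of Il27 and Ebi3. IL-12 binds a receptor made of the Il12rb1 and Il12rb2 chains, signals through JAK2, TYK2 and STAT4 in T and NK cells, and makes those cells release interferon gamma, which in turn acts on most cells of a tumour.

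The regions just before the start of a member are shown for members detected in AAV-iIL12 with more counts there than in AAV-iLuc, because interferon-activated factors and NF-kB act at such sites. RefSeq promoter entries matched 6 of the 10 members, and those shown belong to Il12a, Il12b, Il12rb2 and Ifng. Il12rb1 also met the rule for being shown, but it had no RefSeq entry. Each line holds the 250 bases before the annotated start, 5′ to 3′ on the gene's strand, on build GRCm38.p6. Capitals mark matches to GAS (TTCNNNGAA), the interferon-response core or NF-kB, searched on both strands. The interferon-response core is GAAA, 2 bases of any kind and GAAA, and the NF-kB motif is GGG, 5 bases of any kind and CC.
Il12a (chr3:68691174-68691423, plus strand): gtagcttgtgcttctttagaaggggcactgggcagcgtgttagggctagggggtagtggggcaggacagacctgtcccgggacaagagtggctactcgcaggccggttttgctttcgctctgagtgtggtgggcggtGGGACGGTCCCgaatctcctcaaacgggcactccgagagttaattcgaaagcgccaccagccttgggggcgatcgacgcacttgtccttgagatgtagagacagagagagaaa
Il12b (chr11:44399813-44400062, plus strand): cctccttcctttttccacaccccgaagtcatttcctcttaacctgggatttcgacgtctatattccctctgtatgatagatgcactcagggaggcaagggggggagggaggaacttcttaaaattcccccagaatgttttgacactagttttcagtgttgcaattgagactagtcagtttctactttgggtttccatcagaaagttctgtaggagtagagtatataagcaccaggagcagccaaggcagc
Il12rb2 (chr6:67376189-67376438, minus strand): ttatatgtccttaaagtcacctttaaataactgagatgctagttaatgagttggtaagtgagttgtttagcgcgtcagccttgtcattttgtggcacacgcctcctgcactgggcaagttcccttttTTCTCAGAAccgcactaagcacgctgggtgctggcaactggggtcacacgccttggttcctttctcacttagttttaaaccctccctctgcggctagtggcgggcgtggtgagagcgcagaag
Ifng (chr10:118440796-118441045, plus strand): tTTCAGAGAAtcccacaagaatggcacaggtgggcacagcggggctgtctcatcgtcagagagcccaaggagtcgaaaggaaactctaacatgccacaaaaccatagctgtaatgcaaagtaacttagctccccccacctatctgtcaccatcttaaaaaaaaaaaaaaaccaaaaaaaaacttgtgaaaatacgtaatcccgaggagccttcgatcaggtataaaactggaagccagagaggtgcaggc

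The Il12rb2 window held 1 GAS match, which began 123 bases before the start, and the Ifng window held 1, at its far end. The Il12a window shown held 2 overlapping NF-kB matches, on opposite strands. A second Il12a entry and the Il12b entry held none of the 3 motifs. For Il23r and Ebi3, which were below detection in both groups and are not shown, the Il23r window held 1 NF-kB match and the Ebi3 window held 2 that overlap. Among 32851 RefSeq windows of the same length, 7.02% held a GAS match, 2.98% the interferon-response core and 45.8% an NF-kB match. A match is a run of letters and not a binding site.

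Total counts ranged from 17057054 to 19080587 in the 3 AAV-iIL12 libraries and from 16356653 to 18705849 in the 4 AAV-iLuc libraries. The cells matched their melanoma label. The 7 melanocyte markers summed to between 27845 and 28742 in AAV-iIL12, against 22839 to 25991 in AAV-iLuc, in CPM (counts scaled to library size, with TMM factors). In cells sorted as lacking CD45, Ptprc, its gene, had 37, 45 and 19 counts in AAV-iIL12 and 47, 3, 1 and 8 in AAV-iLuc (Benjamini-Hochberg adjusted p = 0.213, edgeR quasi-likelihood test, where a gene passed at under 0.05). AAV-iLuc replicate 1 had more Ptprc counts than any AAV-iIL12 library, and it stood apart from the other AAV-iLuc libraries in several values below.

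A member was called detected in a group if it had more than 3 counts summed over that group's libraries, which is 0.0566 CPM in AAV-iIL12 against 0.0407 CPM in AAV-iLuc. By this rule 7 of 10 members were detected in AAV-iIL12 (Il12a, Il12b, Il23a, Il12rb1, Il12rb2, Il27ra and Ifng) and 4 in AAV-iLuc (Il23a, Il12rb1, Il12rb2 and Il27ra). Ebi3, Il27 and Il23r were below detection in both groups, and Il12a, Il12b and Ifng were below detection in AAV-iLuc alone. Leaving out any 1 AAV-iIL12 library left 6 detected members there, because Il23a was then at 3 counts or fewer. With a bound of 10 counts in place of 3 there were 5 detected members in AAV-iIL12 and 3 in AAV-iLuc. A member below detection was not detectable at this depth, which does not show that it is absent.

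**Figure D1:**
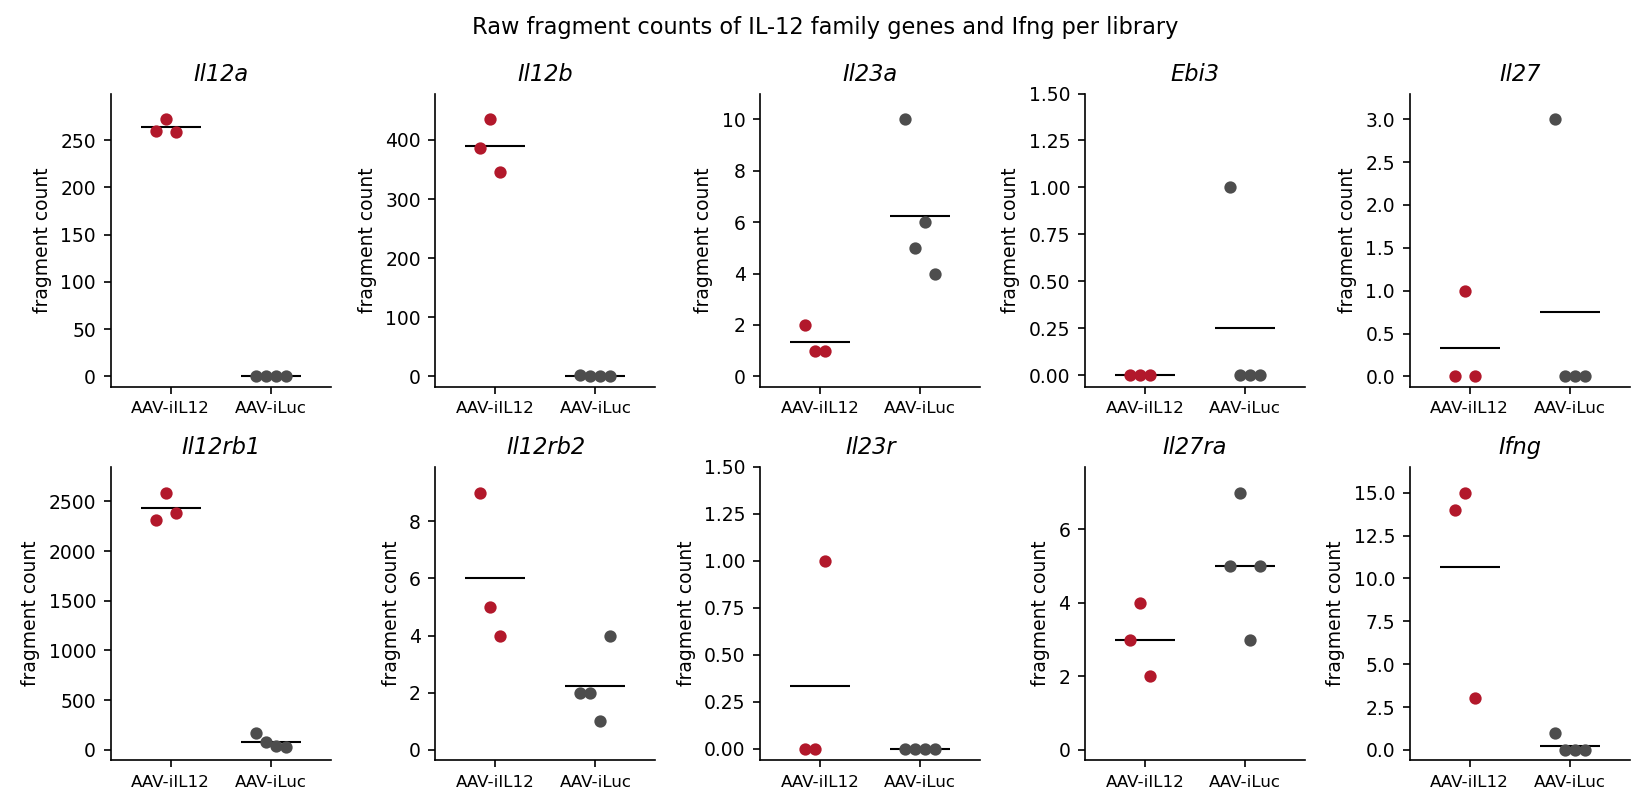
Raw counts of each of the 10 members (one panel each, y axis with its own scale) in the 3 AAV-iIL12 and the 4 AAV-iLuc libraries. Each point is a library and the short line is the group mean. In AAV-iIL12, Il12a lies at 259 to 272, Il12b at 346 to 435 and Il12rb1 at 2315 to 2587 counts, while the other 7 members reach at most 15 counts in any library.

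The IL-12 subunits were well covered in AAV-iIL12, with 791 counts of Il12a and 1168 of Il12b over the group, against 0 and 2 in AAV-iLuc. Il12a (ENSMUSG00000027776, chr3:68597977-68605880 on GRCm39, plus strand) encodes the p35 chain, which is found in IL-12 and IL-35. Il12a had 260, 272 and 259 counts in the AAV-iIL12 libraries, and 0 in each of the 4 AAV-iLuc libraries. The groups did not overlap, as was the case for 52.5% of all tested genes, and the AAV-iIL12 libraries averaged 14.9 ± 0.82 CPM (SD, n = 3). Against a floor of 3 counts over the AAV-iLuc group, Il12a was at least 366-fold higher in AAV-iIL12 (adjusted p = 1.49e-06, edgeR quasi-likelihood test). Il12a could pass the low-count filter only through AAV-iIL12, the group given the vector named for IL-12. Its p-value is therefore no independent support for the difference. In bulk libraries, more cells of a type and more RNA in each cell cannot be told apart.

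Il12b (ENSMUSG00000004296, chr11:44290890-44304860 on GRCm39, plus strand) encodes the p40 chain shared by IL-12 and IL-23. Il12b had 387, 435 and 346 counts in the AAV-iIL12 libraries, against 2, 0, 0 and 0 in the AAV-iLuc libraries. The only 2 counts outside AAV-iIL12 were in AAV-iLuc replicate 1. The ratio of AAV-iIL12 to AAV-iLuc, per TMM-scaled total count, was 811 (exact 95% binomial interval 224 to 6706, counting error only), and without AAV-iLuc replicate 1 it was at least 400 (adjusted p = 3.80e-07 with all libraries, edgeR quasi-likelihood test). Like Il12a, Il12b could pass the low-count filter only through AAV-iIL12, so the same limit holds for its p-value.

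Il12b RNA exceeded Il12a RNA per kilobase of gene model in each AAV-iIL12 library. The ratio of the CPM per kilobase was 1.34, 1.44 and 1.20, with a mean of 1.33 ± 0.12 (SD, n = 3). The ratio rests on the deposited gene lengths, 1967 bases for Il12b and 1773 for Il12a, and a vector-derived transcript could have another length. Whether the Il12a and Il12b counts came from the vector or from the cells' own genes was not tested, because only gene counts were used here.

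The receptor chain Il12rb1 (ENSMUSG00000000791, chr8:71261093-71274068 on GRCm39, plus strand), shared by the IL-12 and IL-23 receptors, was the most abundant member per kilobase in both groups and rose in AAV-iIL12. It had 2315, 2587 and 2383 counts in AAV-iIL12 and 172, 77, 42 and 29 counts in AAV-iLuc. The mean was 137 ± 5.69 CPM in AAV-iIL12 (SD, n = 3) against 4.29 ± 3.30 CPM in AAV-iLuc (SD, n = 4), with no overlap. The log2 fold change was 4.99 ± 0.34 (SE, adjusted p = 4.17e-06, edgeR quasi-likelihood test), rank 65 of 13990 tested genes. AAV-iLuc replicate 1 was the highest of its group; the log2 fold change was 5.66 without it and 4.69 without AAV-iLuc replicate 4. AAV-iLuc replicate 1 had 172 Il12rb1 and 47 Ptprc counts, the highest of its group for both genes. AAV-iIL12 replicate 3 had 2383 Il12rb1 and 19 Ptprc counts. Which cells gave the Il12rb1 counts was not tested.

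Il12rb2 (ENSMUSG00000018341, chr6:67268302-67353172 on GRCm39, minus strand), the chain that gives the IL-12 receptor its signal, had only 9, 5 and 4 counts in AAV-iIL12 and 2, 2, 1 and 4 counts in AAV-iLuc. The ratio per TMM-scaled total count was 2.78 (exact 95% binomial interval 1.19 to 7.02, counting error only). The lowest AAV-iIL12 library matched the highest AAV-iLuc library in raw counts, and lay just above it in CPM (0.220 against 0.206). In a fit without the low-count filter the log2 fold change was 1.45 ± 0.72 (SE, adjusted p = 0.164, edgeR quasi-likelihood test), which did not pass. In CPM per kilobase, Il12rb1 was 374 times Il12rb2 in AAV-iIL12 (exact 95% binomial interval 237 to 632), against 32.9 times in AAV-iLuc (17.1 to 72.5). These intervals pool the libraries of a group and cover counting error only, and the AAV-iLuc ratio rests on 9 Il12rb2 counts.

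The chains that make up the rest of IL-23 and IL-27 were at or near the limit of detection. Il23a (ENSMUSG00000025383, chr10:128132008-128134621 on GRCm39, minus strand), the p19 chain of IL-23, had 2, 1 and 1 counts in AAV-iIL12 and 10, 5, 6 and 4 counts in AAV-iLuc. In CPM the groups did not overlap, as for 52.5% of tested genes, of which Il23a was not one. The ratio per TMM-scaled total count was 0.222 (exact 95% binomial interval 0.0562 to 0.644, counting error only). The fit without the low-count filter gave a log2 difference of -2.06 ± 0.80 (SE, adjusted p = 0.0541, edgeR quasi-likelihood test), short of the threshold. Il12b, the partner chain of Il23a in IL-23, had 1168 counts in AAV-iIL12, where Il23a had 4.

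Ebi3 (ENSMUSG00000003206, chr17:56259640-56264022) and Il27 (ENSMUSG00000044701, chr7:126188182-126194113, both on GRCm39) encode the chains that pair as IL-27. Ebi3 had 0, 0 and 0 counts in AAV-iIL12 and 1, 0, 0 and 0 in AAV-iLuc, and Il27 had 0, 1 and 0 in AAV-iIL12 and 3, 0, 0 and 0 in AAV-iLuc. The AAV-iLuc counts of both genes were all in replicate 1. Il23r (ENSMUSG00000049093, chr6:67399916-67468839 on GRCm39), the specific chain of the IL-23 receptor, had 0, 0 and 1 counts in AAV-iIL12 and 0 in each AAV-iLuc library. None of the 3 passed in the fit without the filter, with adjusted p-values of 0.567 for Ebi3, 0.737 for Il27 and 0.494 for Il23r (edgeR quasi-likelihood test).

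Il27ra (ENSMUSG00000005465, chr8:84756923-84769218 on GRCm39), the IL-27 receptor chain, had 3, 4 and 2 counts in AAV-iIL12 and 5, 7, 3 and 5 counts in AAV-iLuc. The groups overlapped, and the ratio of 0.625 (exact 95% binomial interval 0.251 to 1.44) spans 1. The difference was not detectable at this depth (log2 fold change -0.65 ± 0.70 SE, adjusted p = 0.567, edgeR quasi-likelihood test without the filter). Ebi3, Il27, Il12rb2 and Il27ra each overlap a gene on the opposite strand, and the counting used strand.

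Ifng (ENSMUSG00000055170, chr10:118276951-118281797 on GRCm39, plus strand), the cytokine that IL-12 elicits from lymphocytes, had 14, 15 and 3 counts in AAV-iIL12 and 1, 0, 0 and 0 in AAV-iLuc. The ratio per TMM-scaled total count was 44.5 (exact 95% binomial interval 7.43 to 1810, counting error only), or at least 10.9 without AAV-iLuc replicate 1, whose single count was the group's only one. The fit without the low-count filter gave a log2 difference of 4.91 ± 0.94 (SE, adjusted p = 5.18e-05, edgeR quasi-likelihood test). In that fit 24.2% of 27255 genes were called, 12.7% higher. Its adjusted p-values are not on the scale of the fit with the filter. For Il12rb1, at a log2 fold change of 4.99 in both, they were 7.99e-24 without the filter and 4.17e-06 with it (edgeR quasi-likelihood test). The same-strand gene Gm49751 overlaps Ifng, with 3 counts in AAV-iIL12 and 1 in AAV-iLuc, so a few Ifng fragments may have been lost or assigned to it.

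T and NK cells, the usual sources of interferon gamma, carry CD45 and should be removed by the sort, so their markers are given beside Ifng. The summed NK list of 8 markers had 17, 24 and 3 counts in AAV-iIL12 and 20, 0, 0 and 1 in AAV-iLuc. Within it Nkg7 had 19 counts in AAV-iIL12 against 7 in AAV-iLuc, Klrk1 had 13 against 2 and Klre1 had 4 against 0, while Klrd1 had 1 against 5 and Ncr1, its defining gene, had 0 against 2. In AAV-iIL12 both Ifng and the NK list were lowest in replicate 3, and so was Ptprc. Between groups they differed: AAV-iLuc replicate 1 had 20 NK list counts and 1 Ifng count, against 17 and 14 in AAV-iIL12 replicate 1. The 12 T cell markers summed to 112, 119 and 114 counts in AAV-iIL12 and 61, 32, 32 and 55 in AAV-iLuc, of which Lck made up 92, 94 and 93 in AAV-iIL12 and 50, 27, 26 and 51 in AAV-iLuc. Lck was called higher, with a log2 fold change of 1.34 (adjusted p = 7.30e-04, edgeR quasi-likelihood test). Cd3e had 3, 1 and 0 counts in AAV-iIL12 and 0 in AAV-iLuc. Cd8a had 6, 4 and 6 counts in AAV-iIL12 and Cd2 had 4, 3 and 3, both against 0 in AAV-iLuc. Cd247 and Cd4 went the other way, with 11 against 19 and 0 against 2 counts over the groups. Of the 12 T cell genes, 1 was at 0 in AAV-iIL12 against 7 in AAV-iLuc. The part of these cells in the Ifng result was not tested.

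**Figure D2:**
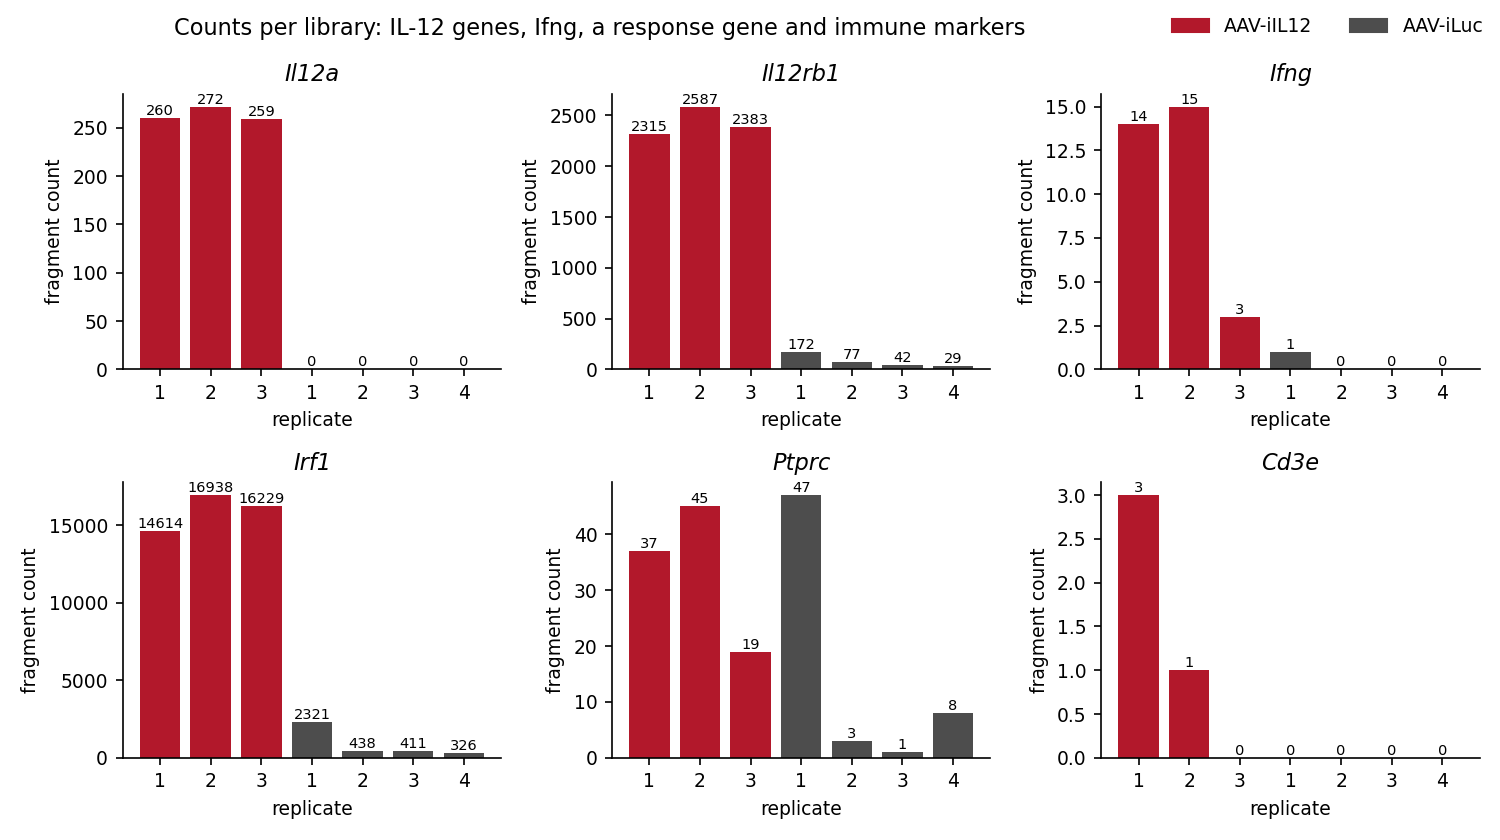
Raw fragment counts (y axis, own scale in each panel) of Il12a, Il12rb1, Ifng, the response gene Irf1, the leukocyte gene Ptprc and the T cell gene Cd3e, one bar per library. Ptprc reaches 47 counts in AAV-iLuc replicate 1 and 45 in AAV-iIL12 replicate 2. Il12rb1 has 172 counts in the first of these libraries and 2587 in the second, and which cells gave them was not tested.

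Across all genes, 3 of the 10 members passed the low-count filter (Il12a, Il12b and Il12rb1), and these 3 rose. Of the 13990 tested genes 47.2% were called and 23.5% were higher, and Il12a and Il12b could pass the filter only through AAV-iIL12. Their direction and call held under each alternative normalization and filter tried and without any 1 library, where the highest adjusted p was 5.02e-05 (edgeR quasi-likelihood test). Without AAV-iIL12 replicate 3, Ifng also passed the filter and was called higher, as in the fit without a filter. The library left out there was the lowest of its group for Ifng, with 3 counts against 14 and 15. Ifng too could then pass the filter only through AAV-iIL12, so that call is no separate support.

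In AAV-iIL12 the order was Il12rb1 at 33.5 CPM per kilobase (31.9 to 34.4 over 3 libraries), Il12b at 11.2 (9.66 to 12.01), Il12a at 8.43 (8.02 to 8.93), and then Ifng at 0.472 (0.127 to 0.659). These first 3 did not overlap one another, and Ifng lay far below them. Il12rb2 at 0.0913 overlapped Ifng, and Il27ra at 0.0486 and Il23a at 0.0343 followed, each overlapping the one before. Of the members below detection there, Il27 was at 0.0177, Il23r at 0.00736 and Ebi3 at 0. In AAV-iLuc Il12rb1 led at 1.04 CPM per kilobase (0.364 to 2.18), ahead of Il23a at 0.151, Il27ra at 0.0773, and Il12rb2 at 0.0316, and neighbours among the last 3 overlapped. Of the members below detection there, Il27 was at 0.0382 CPM per kilobase, all from 3 counts in replicate 1, Il12b at 0.0132, Ebi3 at 0.0113, Ifng at 0.01004, and Il12a and Il23r at 0. For scale, the median tested gene was at 5.52 CPM per kilobase in AAV-iIL12 and 5.39 in AAV-iLuc.

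The signal transducers of the family were mostly higher in AAV-iIL12. Of 6 genes, 5 were tested, 4 rose, none fell, and 1, Il6st, did not pass. Their median log2 fold change was 0.38, against -0.005 over all tested genes. Of all 13990 tested genes, 23.5% were higher and 23.7% lower, the shares to set beside this list and those below. Jak2, a kinase of the IL-12 receptor, rose on the log2 scale by 1.28 ± 0.07 (SE, adjusted p = 1.19e-06), and Stat3 by 0.93 ± 0.06 (SE, adjusted p = 3.21e-06; edgeR quasi-likelihood test for both). Jak1 rose by 0.38 and Tyk2, the other kinase of the IL-12 receptor, by 0.26 on the log2 scale (adjusted p = 6.60e-04 and 0.00252, edgeR quasi-likelihood test). Stat4, the factor that IL-12 itself activates, had 2 counts in AAV-iIL12 and 6 in AAV-iLuc and did not pass the filter. Il6st, a chain of the IL-27 receptor, was at 168 ± 11.9 CPM (SD, n = 3) in AAV-iIL12 against 161 ± 8.54 CPM (SD, n = 4) in AAV-iLuc (adjusted p = 0.439, edgeR quasi-likelihood test), and its log2 fold change of 0.07 was -0.03 with library size only and -0.01 with upper quartile scaling.

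Genes of the interferon gamma response had the largest median change of the 5 lists with tested genes. Of 12 genes, 11 were tested, 9 rose, 1 (Ifngr2) fell and 1 did not pass, with a median log2 fold change of 4.03. Ido1, which did not pass the filter, had 34 counts in AAV-iIL12 and 5 in AAV-iLuc. Socs1, a feedback inhibitor of JAK signalling, rose on the log2 scale by 4.03 ± 0.25 (SE, adjusted p = 2.50e-06), and the chemokine Cxcl10 by 4.02 ± 0.28 (SE, adjusted p = 4.38e-06). Cd274, the gene of PD-L1, rose by 4.58 ± 0.39 (SE, adjusted p = 1.39e-05), and Cxcl11 by 3.81 ± 0.39 (SE, adjusted p = 4.16e-05; edgeR quasi-likelihood test for each). Of the receptor chains, Ifngr2 fell by 0.23 on the log2 scale (adjusted p = 0.00242, edgeR quasi-likelihood test), and Ifngr1 had -0.20 (adjusted p = 0.0547).

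**Figure D3:**
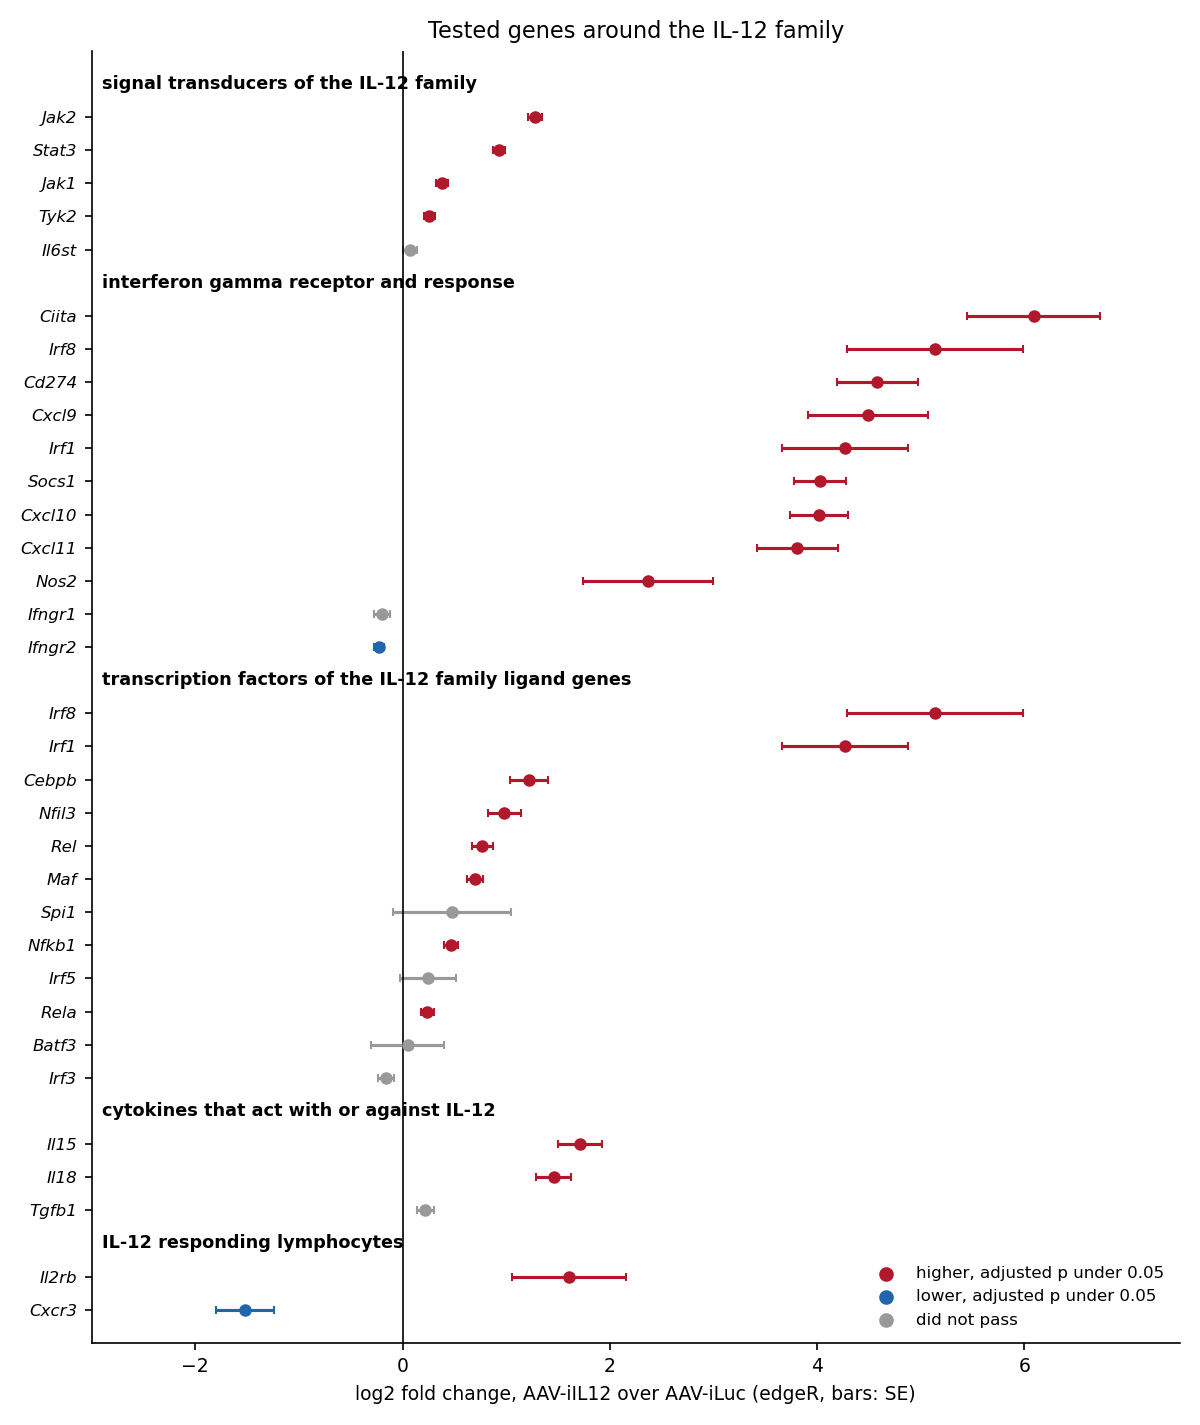
Log2 fold changes (x axis), AAV-iIL12 over AAV-iLuc, of the tested genes of 5 lists, one point per gene with bars of 1 SE, coloured by whether and in which direction the gene passed. Most genes of the interferon gamma response lie above 3, while Cxcr3 at -1.52 and Ifngr2 at -0.23 are the genes that fell.

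Of 12 transcription factors known to act on the ligand genes, all were tested, 8 rose and 4 did not pass, with a median log2 fold change of 0.59. Over all tested genes 47.2% were called. A minimum absolute log2 fold change of 1 left 3 of the 8. Irf1 and Irf8 stand in this list and in the interferon gamma list. Irf1, a factor that interferon gamma induces and that acts on Il12 genes, had 14614, 16938 and 16229 counts in AAV-iIL12 and 2321, 438, 411 and 326 in AAV-iLuc. Its log2 fold change was 4.27 ± 0.61 (SE, adjusted p = 3.13e-04, edgeR quasi-likelihood test), and 5.38 without AAV-iLuc replicate 1. Maf, Rel and Nfkb1 rose by 0.70, 0.77 and 0.47 on the log2 scale (adjusted p = 1.02e-04, 1.38e-04 and 2.85e-04, edgeR quasi-likelihood test). The factors that did not pass included Irf3 at -0.16 (adjusted p = 0.114) and Irf5 at 0.25 (adjusted p = 0.475).

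Of 10 cytokines that act with or against IL-12, 3 passed the filter; Il18 and Il15 rose and Tgfb1 did not pass. Il18, which acts with IL-12 on T and NK cells, rose on the log2 scale by 1.46 ± 0.17 (SE, adjusted p = 9.71e-05), and Il15, a growth factor of NK cells and memory T cells, by 1.71 ± 0.21 (SE, adjusted p = 1.14e-04; edgeR quasi-likelihood test for both). Tgfb1 had 0.22 (adjusted p = 0.0554), and it passed in 6 alternatives, among them DESeq2 (adjusted p = 0.0466) and the fit without AAV-iLuc replicate 1 (adjusted p = 0.0193). Tnf had 29 counts in AAV-iIL12 and 6 in AAV-iLuc and was not tested. None of the 5 genes of the IL-23 and IL-17 arm passed the filter. Il17a, Il22 and Ccr6 had 0 counts in every library, Il17f had 10 counts in AAV-iIL12 and 10 in AAV-iLuc, and Csf2 had 0 in AAV-iIL12 and 4 in AAV-iLuc.

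Of 9 genes of lymphocytes that respond to IL-12, 2 were tested, of which 1 rose and 1 fell. Cxcr3, a chemokine receptor, had 27, 45 and 30 counts in AAV-iIL12 and 64, 100, 125 and 114 in AAV-iLuc. Its log2 fold change was -1.52 ± 0.28 (SE, adjusted p = 0.0016, edgeR quasi-likelihood test). In AAV-iLuc replicates 2, 3 and 4, where Cxcr3 had 100, 125 and 114 counts, Ptprc had 3, 1 and 8. Which cells gave the Cxcr3 counts was not tested. Il2rb, a chain of the IL-2 and IL-15 receptors, rose by 1.61 ± 0.55 on the log2 scale (SE, adjusted p = 0.0338, edgeR quasi-likelihood test), a call that was lost without any 1 of the AAV-iIL12 libraries and without AAV-iLuc replicate 3 or 4. Without AAV-iLuc replicate 1 it was 2.45 (adjusted p = 0.00222, edgeR quasi-likelihood test). Gzmb, the gene of granzyme B, had 32, 12 and 8 counts in AAV-iIL12 and 4, 0, 0 and 0 in AAV-iLuc. Eomes, a transcription factor of NK and memory T cells, had 2, 0 and 8 counts in AAV-iIL12 and 4, 10, 14 and 0 in AAV-iLuc, so the groups overlapped.

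Over the 7 libraries, 5 genes had the pattern most like Il12rb1, by the root mean square difference of centred log2 CPM over 10112 candidates that averaged 2 or more in log2 CPM. These were Casp12 (0.14), Oasl2 (0.17), Il18bp (0.21), Batf2 (0.26) and Gbp3 (0.27). Il12a and Il12b averaged -0.14 and 0.23 on that scale, so they were not candidates for each other or for Il12rb1. Among the candidates, the nearest to Il12a was Oas3 at 0.96, followed by Gbp11, Slco2a1, Il12rb1 and H2-DMa, and for Il12b it was Gbp11 at 0.72, followed by H2-DMa, Oas3, Ifi44 and Olfr56. Oasl2 and Gbp3 belong to interferon-induced families, and Il18bp encodes a secreted binder of IL-18, a cytokine that acts with IL-12. Il18bp averaged 195 ± 17.1 CPM in AAV-iIL12 (SD, n = 3) against 6.46 ± 5.83 CPM in AAV-iLuc (SD, n = 4), a log2 fold change of 4.90 that was 5.77 without AAV-iLuc replicate 1. The likeness is a description over 7 libraries in 2 groups, and it carries no test.

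**Figure D4:**
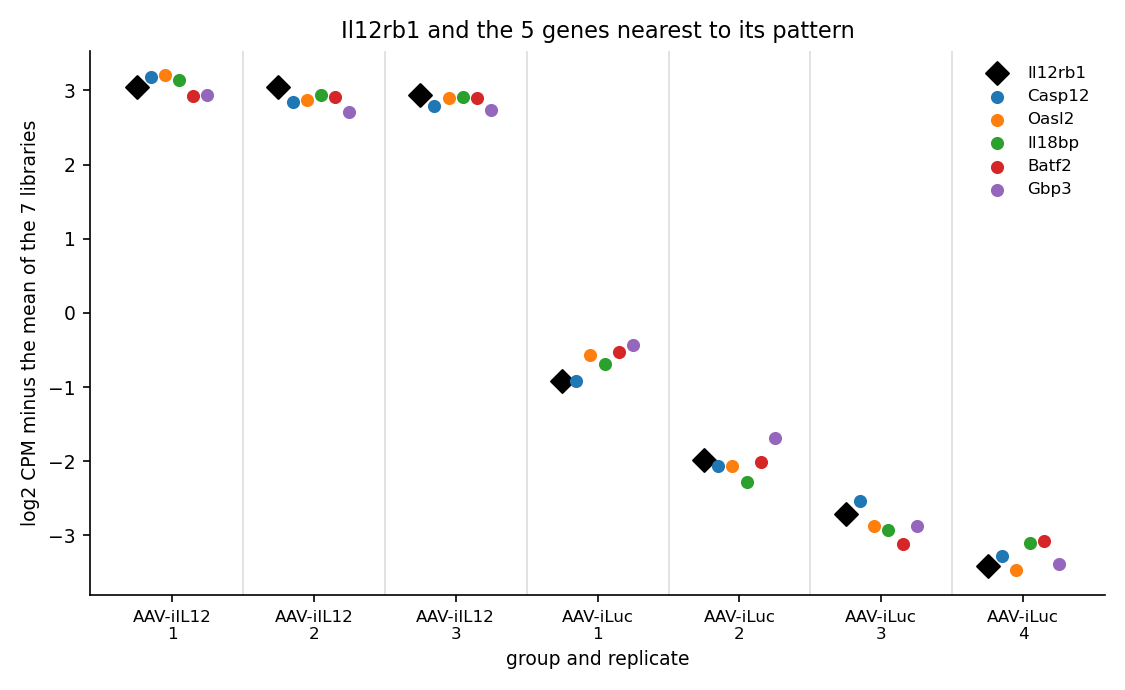
Centred log2 CPM (each gene's log2 CPM minus its mean over the 7 libraries) of Il12rb1 and of its 5 nearest genes. Points are libraries, with AAV-iIL12 replicates to the left of AAV-iLuc replicates. Every gene lies near 3 in AAV-iIL12, and AAV-iLuc replicate 1 is the highest AAV-iLuc library for each.

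Markers of other cell types were summed for each library. Leukocyte markers summed to 360 to 376 CPM in AAV-iIL12 against 303 to 333 CPM in AAV-iLuc, chiefly Arhgdib and Lcp1. Macrophage and monocyte markers summed to 26.6 to 43.1 CPM in AAV-iIL12 against 16.2 to 35.5 CPM in AAV-iLuc, and dendritic cell markers to 7.71 to 10.7 CPM in AAV-iIL12 against 6.09 to 8.81 CPM in AAV-iLuc, with Flt3, Xcr1, Cd209a and Siglech at 0 in AAV-iIL12 and Clec9a at 0 in AAV-iLuc. Of 9 tested macrophage and monocyte markers 1, C1qb, rose, with 75, 29 and 26 counts in AAV-iIL12 against 23, 0, 2 and 8 in AAV-iLuc (log2 fold change 2.48, adjusted p = 0.0208, edgeR quasi-likelihood test), and 8 did not pass. The adjusted p of C1qb was 0.103 without AAV-iIL12 replicate 1 and 0.0527 without AAV-iLuc replicate 3 (edgeR), a check added after its value was seen. The groups did not overlap for the leukocyte list, as for 52.5% of tested genes taken singly, and overlapped for the lists of macrophages and dendritic cells. Of 7 tested leukocyte markers 1, Arhgdib, rose (log2 fold change 0.20, adjusted p = 0.0172, edgeR quasi-likelihood test). The other 6, Ptprc among them, did not pass, though each had a positive log2 fold change, from 0.05 (Lcp1 and Was) to 1.27 (Ptprc). The untested Cd52, Vav1 and Ikzf1 also had more counts in AAV-iIL12, at 31 against 19, 17 against 4 and 21 against 7. Arhgdib averaged 327 against 284 CPM, so the leukocyte sum mostly followed this gene. Whether AAV-iIL12 held more leukocytes was not tested by that sum. B cell markers summed to 0.914 to 1.1 CPM in AAV-iIL12 against 0.655 to 1.08 CPM in AAV-iLuc, and neutrophil markers to 0 to 0.183 CPM in AAV-iIL12 against 0 to 0.52 CPM in AAV-iLuc. Endothelial markers summed to 15.3 to 26.7 CPM in AAV-iIL12 against 19.4 to 24.9 CPM in AAV-iLuc, with Cdh5, Emcn and Cldn5 at 0 in both, and fibroblast markers to 58.3 to 158 CPM in AAV-iIL12 against 84.3 to 290 CPM in AAV-iLuc. As group means, AAV-iIL12 against AAV-iLuc, Zbtb46 was at 8.77 against 7.47 CPM, and no other dendritic cell marker exceeded 0.211. Vwf, at 20.5 against 21.9 CPM, made up nearly all of the endothelial sum. Cd68, at 18.6 against 15.3 CPM, was the largest part of the macrophage and monocyte sum. The dendritic cell and endothelial sums thus mostly followed Zbtb46 and Vwf. Macrophages and dendritic cells are the usual makers of IL-12, and the part of these cells in the Il12a and Il12b results was not tested.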

How the data were processed

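Libraries of poly(A) RNA, made with a strand-keeping kit, came from 7 sorted tumour samples, 3 AAV-iIL12 and 4 AAV-iLuc. The authors deposited raw fragment counts per gene, counted by featureCounts 1.6.0 (exons, grouped by gene, reverse-stranded, paired-end, GENCODE vM32), per the file headers. The headers show no setting for multimapping reads. FastQC 0.11.8, STAR 2.7.9a, the build GRCm39, edgeR and limma are named in the submitters' processing notes. Symbols came from GENCODE vM21 by gene identifier and matched 52029 of 56953 identifiers, which held 99.44% of counts. Vector sequence was not analysed here, and promoter sequences are RefSeq's on GRCm38.p6, a build other than that of the counts.

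Groups were compared with edgeR 4.0.16 (R 4.3.3), with TMM, filterByExpr (13990 genes kept), the quasi-likelihood F test and Benjamini-Hochberg adjustment at 0.05 over all tested genes. SE is the absolute log2 fold change over the square root of F. CPM are TMM-scaled. Members that did not pass the filter are given as counts, a ratio of summed counts per TMM-scaled total with an exact 95% binomial (Clopper-Pearson) interval and a fit without the filter. Intervals and floors cover counting error only. The same code was tested on simulated data. Alternatives were other normalizations and filters, DESeq2 1.42.0, limma-voom (limma 3.58.1), other thresholds, a replicate block and each library left out.

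The members and lists were chosen with earlier results of these data known. Named genes are the 10 members; of each list, up to 4 called genes with the smallest p and up to 2 uncalled genes with the highest mean CPM; and for each tested member the 5 nearest genes among those averaging 2 or more in log2 CPM. Ifngr2, Il17a, Il22, Ccr6 and the marker genes named beside them were named outside that rule, after their values were seen. The labels give no batch. The design text counts libraries as mice. Replicate numbers did not pair the groups: deviations of same-numbered libraries correlated at 0.0876, 0.0337 and -0.0485. No 2 libraries of the same group agreed within sampling noise, and pairs across the groups were not compared in that check. A few list genes are not reported here and were left out of the list counts.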

Additional observations from a re-analysis of the deposited data

Results flagged for a closer look

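In the AAV-iLuc group of 4, 1 library lay far from the other 3 in 12 of 57 group-and-measure combinations examined for an outlying sample. For a continuous measure chance flags about 1 in 20, but that rate does not hold for 6 of the 12 (Il12b, Ebi3, Il27, Ifng, Ido1 and Gzmb), where a library with 1 to 5 counts against 3 at 0 is flagged by construction. In 11 of the 12, the library was AAV-iLuc replicate 1, which was high. Among the members it had Il12b at 0.104 CPM, Ebi3 at 0.052, Il27 at 0.156 and Ifng at 0.052 CPM, with the other 3 AAV-iLuc libraries at 0 for each. It also had Ido1 at 0.26 and Gzmb at 0.208 CPM, with the others at 0. Irf1 was at 121 CPM there, against 16.8 to 24.5 in the others, Gbp11 at 4.89 (0.357 to 0.932) and H2-DMa at 12.7 (0.825 to 1.75). The summed NK markers were at 1.04 CPM (0 to 0.0515) and the summed neutrophil markers at 0.52 CPM (0 to 0.0548). AAV-iLuc replicate 4 was low for Il18, at 4.74 CPM against 7.62 to 8.16 in the others. The marks are not independent, because many share 1 library.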

How the results depend on the processing

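Among 942 comparisons of an alternative with 60 results, 895 kept their call or stayed within the spread. No result that passed changed sign; Il6st, which did not pass, went to -0.03 with library size only and -0.01 with upper quartile. A minimum absolute log2 fold change of 1 left 817 genes higher and 654 lower, 1 signal transducer and 3 transcription factors higher, and 0 of the interferon gamma list lower. Without the low-count filter 4 cytokines and 2 lymphocyte genes were higher. Of the lymphocyte genes, 0 were higher with the replicate block and 0 at a threshold of 0.01, and between 0 and 1 with 1 library left out. Library size only and upper quartile each called 2 interferon gamma genes and 1 transcription factor lower (Ifngr1 and Irf3 then also passed), and over left-out libraries these ranged from 1 to 2 and from 0 to 1. They put 36.0% (2506 higher, 4460 lower) and 38.5% (2650 higher, 4225 lower) of calls on the higher side, against 49.8% (3292 higher, 3316 lower). Tgfb1 passed with median-of-ratios size factors (adjusted p = 0.0494), no filter (0.0375), DESeq2 (0.0466) and the replicate block (0.0442), and when AAV-iIL12 replicate 2 (0.0374) or AAV-iLuc replicate 1 (0.0193) was left out, by edgeR except where DESeq2 is named. The raw-count ratio of Il12b to Il12a was 1.47. The replicate block called 2832 genes higher and 2828 lower, and the same 3 members. The cause of these shifts was not tested. With few counts, depth limits what can be said of Il23a, Ebi3, Il27, Il12rb2, Il23r, Il27ra and Ifng.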
